A study of Mus musculus with 6 samples.

Results

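Homer proteins and metabotropic glutamate receptors were described here by 9 genes, the 3 Homer genes (Homer1, Homer2 and Homer3) and 6 receptor genes (Grm2, Grm3, Grm4, Grm5, Grm7 and Grm8), out of 23337 gene symbols in the table. They were taken by symbol, and all 9 were found. RNA was taken from SNc dopaminergic neurons (SNc, the midbrain's substantia nigra pars compacta) that had been sorted by fluorescence from adult C57BL/6 mice. Every animal, in either group, carried Sox6-FSF-Cre, Th-2A-Flpo and RC-Frepe. In this design the Flp recombinase is made under Th and the Cre depends on both Flp and Sox6, so that cells that have made Th and Sox6 at any time make GFP (Sox6+) and cells that have made Th alone make mCherry (Sox6-). There were 3 libraries of Sox6+ and 3 of Sox6- neurons, and the numbers 103, 825 and 1211 occur once in each group. No label says that they came from separate animals, so a p-value here reflects only how far these samples spread, which may be technical. The gene set was drawn up with the difference of Homer2 between these groups already known. Every comparison of the 2 groups for these 9 genes is therefore a description, and the adjusted p-values printed for them give only where each gene stood in the fit over all genes.

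Metabotropic glutamate receptors are G protein-coupled receptors that tune synaptic transmission. Group I receptors, among them mGluR5 (Grm5), act through Gq, phospholipase C and release of calcium from internal stores by IP3 receptors, and lie mostly at the postsynaptic membrane. Group II (Grm2, Grm3) and group III (Grm4, Grm7, Grm8) act through Gi/o, lower cyclic AMP and often sit on axon terminals, where they reduce transmitter release. Homer proteins are scaffolds whose EVH1 domain binds a proline-rich motif in group I receptors, Shank proteins, IP3 receptors and ryanodine receptors, and whose coiled coil joins these partners into one complex. Homer1 also has a short form without the coiled coil, an immediate early gene product. The table counts whole genes, so the short and long forms of Homer1 could not be told apart.

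The groups and the neurons were checked first. Sox6 lay between 389.0 and 840.5 normalized reads (reads divided by a size factor per library) in the Sox6+ libraries and between 18.1 and 103.6 in the Sox6- libraries. The 6 libraries held 10397924 to 12952768 reads in genes. The summed level of 6 dopaminergic markers (Th, Slc6a3, Slc18a2, Ddc, Drd2 and Nr4a2) ran from 100430 to 196130.3 in the Sox6+ and from 36786.8 to 125607.9 in the Sox6- libraries, and none of the 6 was at 0. The sums overlapped between the groups and were higher in the Sox6+ library for each of the 3 numbers. Sox6+ library 825 stood apart: 8 macrophage or microglia markers summed to 27925.4 there against 8.35 to 35.5 in the other 5 libraries, and 7 GABAergic markers summed to 5.69 against 2340.8 to 17826.5. Most of the macrophage or microglia sum was Lyz2, at 26494.1. Tyrobp (1035.1), Ptprc (335.9) and Csf1r (58.1) were above 0 only in that library. C1qa, C1qb and Aif1 were at 0 there, and Cx3cr1 was at 2.28. In these sorted pools of cells, fewer cells of a type and less RNA per cell cannot be told apart.

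The windows before the transcription starts of Homer2 and Homer1 are shown because the levels of these 2 tested Homer genes ran differently over the libraries. In GRCm38 Homer2 lies at chr7:81600481-81707527 on the minus strand, and Homer1 lies at chr13:93299635-93405129 on the plus strand. Each sequence is the 250 bases before a RefSeq start (GRCm38.p6), read 5′ to 3′ on the strand of the gene. Capitals mark the letters TGACG or CGTCA, a part of the cyclic AMP response element.
Homer2 first start, chr7:81706926-81707175, minus strand: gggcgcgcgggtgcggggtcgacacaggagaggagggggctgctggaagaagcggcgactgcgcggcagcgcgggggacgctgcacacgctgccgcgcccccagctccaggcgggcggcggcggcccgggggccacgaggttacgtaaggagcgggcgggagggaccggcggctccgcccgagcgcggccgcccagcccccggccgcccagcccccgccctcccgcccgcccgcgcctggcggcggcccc
Homer2 second start, chr7:81692966-81693215, minus strand: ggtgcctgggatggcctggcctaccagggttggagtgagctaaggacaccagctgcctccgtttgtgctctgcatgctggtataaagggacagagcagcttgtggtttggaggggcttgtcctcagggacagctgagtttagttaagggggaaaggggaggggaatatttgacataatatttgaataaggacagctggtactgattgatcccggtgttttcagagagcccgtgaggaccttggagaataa
Homer1 first start, chr13:93303507-93303756, plus strand: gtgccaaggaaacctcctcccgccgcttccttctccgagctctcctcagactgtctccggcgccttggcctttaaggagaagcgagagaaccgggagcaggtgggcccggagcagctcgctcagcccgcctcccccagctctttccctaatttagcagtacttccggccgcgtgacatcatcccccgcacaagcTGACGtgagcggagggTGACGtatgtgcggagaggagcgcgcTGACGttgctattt
The first Homer2 window was 83.2% G and C with 40 CpG pairs, where the median of 32851 windows of this length was 52.4% and 6 CpG pairs. The last 19 bases of that window lie in an annotated Homer2 exon. The second Homer2 window had 52.0% G and C and 3 CpG pairs. The first Homer1 window held 3 matches to TGACG on either strand. The second Homer1 window (chr13:93307784-93308033, 46.8% G and C, 7 CpG pairs, not printed) and both Homer2 windows held 0. Of the 12 windows of the 7 members in the start table, 2 held TGACG (the second window of Grm8 also had 1 match), against 17.8% of all windows. The complete element TGACGTCA, which contains TGACG, was in none of the 12, against 1.55% of all windows. The SOX core letters ACAAT and the variant ACAAAG, searched on both strands, were also in none of the 12, against 27.7% and 16.5% of all windows. Most of the 12 windows were richer in G and C than the median window, and the windows of Grm7 overlap each other. The shares over all windows are not matched for this, so no depletion is read from the counts of 0. These are matches of letters and not sites of binding.

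Homer2 was the member with the clearest separation between the groups. Its normalized read count was 723.1, 903.0 and 1025.8 in Sox6+ libraries 103, 825 and 1211, and 274.4, 340.4 and 242.1 in the Sox6- libraries of the same numbers. Every Sox6+ library was far above every Sox6- library, so the groups did not overlap. The means were 884.0 ± 152.2 and 285.6 ± 50.1 (SD, n = 3 each), a difference of 1.63 on the log2(value + 1) scale with a standard error of 0.224, or 3.09-fold. Between libraries of the same number the log2 difference was 1.39, 1.40 and 2.08 for 103, 825 and 1211. Homer2 stood at rank 18 by p among 13175 tested genes, and limma gave an adjusted p of 0.0279 (Benjamini-Hochberg adjustment across the whole table). It was the only one of the 8 tested members past the threshold of 0.05, where 0.304% of all tested genes were. The authors' deposited table gave it a log2 fold change of -1.63, with Sox6- as the numerator, and an adjusted p of 7.92e-08.

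The size of the Homer2 difference moved little with the processing, while its place relative to the threshold did. Over 15 other settings the log2 difference ran from 1.51 to 1.76. The adjusted p was 0.0682 with the edgeR quasi-likelihood test, which called 0.0455% of genes, and 1.23e-07 with DESeq2, which called 2.98%. With limma it was 0.0583 when Sox6+ library 825 was left out and 0.114 when Sox6+ library 1211 was. Leaving out Sox6- library 103 gave 0.0572 and leaving out Sox6- library 1211 gave 0.173. The count of members past the threshold was then 0 in each of these 4 fits. Dopaminergic markers were set beside Homer2. Of the 6, Slc18a2 and Drd2 were higher in Sox6+ libraries without overlap, and the other 4 overlapped. Between libraries of the same number, all but Nr4a2 were higher in the Sox6+ library every time. Slc6a3 lay at 22785.7, 56609.2 and 42438.8 in Sox6+ libraries 103, 825 and 1211 and at 5970.0, 23881.5 and 5720.4 in the Sox6- libraries. Ddc lay at 30897.9, 54634.7 and 52328.6 against 10791.7, 36607.7 and 10325.1. Th lay at 29970.6, 63184.0 and 50858.3 in Sox6+ libraries 103, 825 and 1211 and at 17583.9, 51430.7 and 14823.2 in the Sox6- libraries. Nr4a2 was highest in Sox6- library 825, at 2672.7. Drd2, Th, Slc6a3 and Ddc were highest in Sox6+ library 825, whereas Homer2 was highest in Sox6+ library 1211. Slc18a2, the vesicular monoamine transporter, lay at 13767.9, 18435.5 and 21200 in Sox6+ libraries 103, 825 and 1211 and at 4509.9, 10597.3 and 4280.1 in the Sox6- libraries, which put the 6 libraries in the same order as Homer2. The dopamine receptor gene Drd2 lay at 528.8, 950.8 and 615.5 against 209.1, 417.9 and 188.3. Their part in the Homer2 values was not tested.

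An exon of Gm44570 overlaps an exon of Homer2 on the other strand, and whether the authors counted reads by strand is not given in the sources used here.

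**Figure D1:**
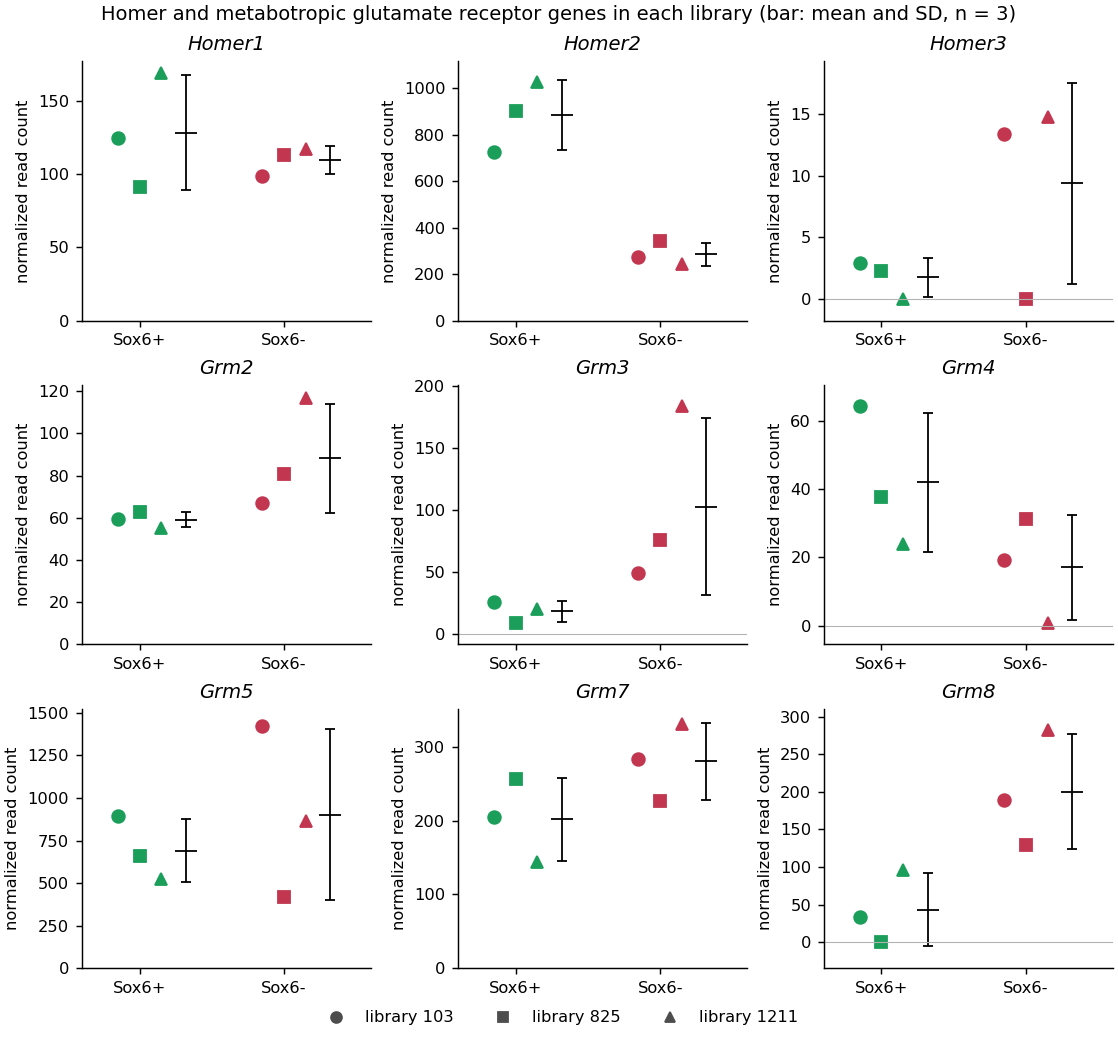
Normalized read count of each of the 9 genes in each library, with Sox6+ libraries in green, Sox6- libraries in red, the library number as the marker shape, and the mean and SD of 3 libraries as a bar. Homer2 lies between 723.1 and 1025.8 in Sox6+ and between 242.1 and 340.4 in Sox6- libraries, while the Homer1 values of the groups overlap.

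Homer1 showed no such separation. It lay at 124.3, 91.1 and 169.1 in Sox6+ libraries 103, 825 and 1211 and at 98.8, 112.8 and 116.9 in the Sox6- libraries, so that the Sox6- values fell inside the range of the Sox6+ values. The log2 difference was 0.18 (standard error 0.356, adjusted p = 0.874, limma). It was -0.04 without Sox6+ library 1211. Homer3 was close to the limit of detection. It had 3, 2 and 0 reads in the Sox6+ libraries and 14, 0 and 16 in the Sox6- libraries, and its mean of 5.58 was below the minimum of 10 for testing. The 30 reads of the Sox6- libraries against 5 of the Sox6+ libraries make a ratio of 6.00, with an exact 95% binomial interval of 2.31 to 19.8 that covers counting error only. Sox6- library 825 had none, so the groups overlapped. Exons of Homer3 also overlap those of Ddx49 on the other strand, which lay between 212.0 and 565.9 in every library.

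Per length, Homer2 made up the largest share of the Homer level in all 6 libraries. To compare genes, the normalized read count was divided by the length of all annotated exons of the gene (GENCODE M21), 11976 bases for Homer1, 12621 for Homer2 and 3440 for Homer3. On this scale Homer2 was 83.6%, 89.6% and 85.2% of the summed level of the 3 genes in Sox6+ libraries 103, 825 and 1211, and 64.1%, 74.1% and 57.7% in the Sox6- libraries. The level of Homer2 per kb was 6.89 ± 2.18 times that of Homer1 in the Sox6+ libraries and 2.49 ± 0.467 times in the Sox6- libraries (SD, n = 3 each). Homer2 was above Homer1 in all 6 libraries by this length and by the 2 others tried. By the longest coding transcript the ratio was 3.78 ± 1.19 and 1.36 ± 0.256, since that of Homer2 has 10982 bases and that of Homer1 has 5713. The share of Homer2 in Sox6- library 1211 was then 45.7%, still above the 42.4% of Homer1.

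**Figure D2:**
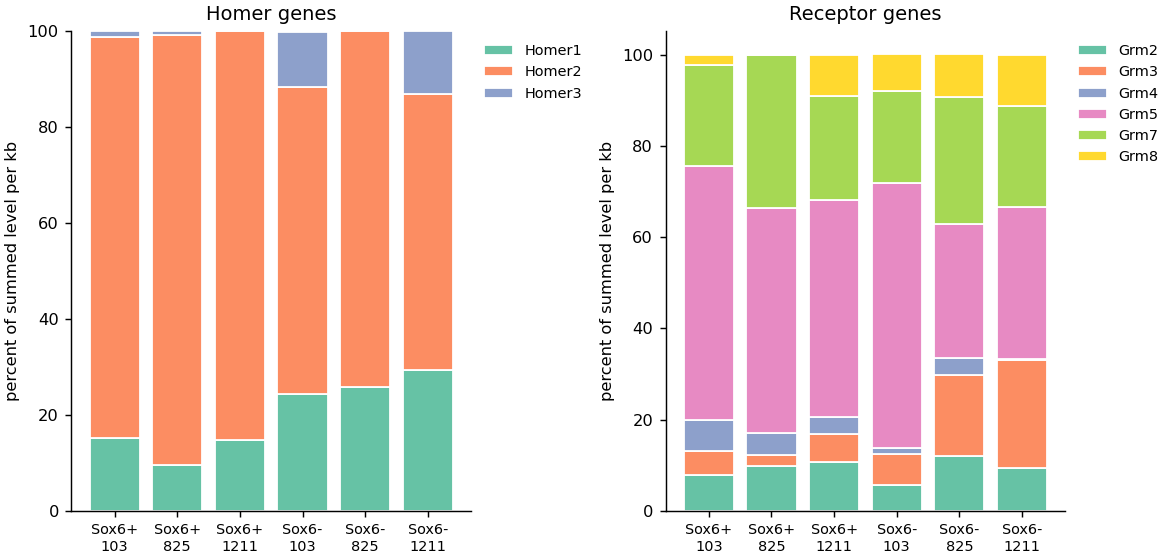
Share of each gene, in percent, of the summed level per kb of annotated exon, for the 3 Homer genes (left) and the 6 receptor genes (right), with 1 bar per library. Homer2 takes 83.6% to 89.6% of the Homer level in Sox6+ and 57.7% to 74.1% in Sox6- libraries, and Grm5 takes 29.3% to 58.1% of the receptor level over all 6.

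Levels per kb of exon were then ordered over all 9 genes. In Sox6+ neurons Homer2 (70.0 ± 12.1 per kb) and Grm5 (67.4 ± 18.2) came first and did not differ beyond their spread. Grm7 followed at 34.3 ± 9.53, then Grm2 at 12.1 ± 0.734, Homer1 at 10.7 ± 3.27, Grm4 at 7.01 ± 3.41, Grm3 at 6.02 ± 2.77 and Grm8 at 4.37 ± 4.93 (SD, n = 3 each). From Grm2 to Grm8 the ranges of neighbours in this order overlapped. Homer3 came last at 0.507 ± 0.451. In Sox6- neurons Grm5 came first at 88.0 ± 49.2 and Grm7 next at 47.7 ± 8.89, followed by Grm3 at 33.7 ± 23.4, Homer2 at 22.6 ± 3.97, Grm8 at 20.2 ± 7.74 and Grm2 at 18.0 ± 5.25. The ranges of neighbours among these 6 genes overlapped. Homer1 (9.14 ± 0.790), Grm4 (2.86 ± 2.55) and Homer3 (2.74 ± 2.38) were the lowest per kb of exon. The order depended on the length used. Per kb of coding sequence Homer2 came first in both groups, and per kb of the longest coding transcript Grm5 came first in both. Homer1 moved up to rank 3 in Sox6+ (115 ± 35.3) and to rank 4 in Sox6- neurons (98.6 ± 8.53) per kb of coding sequence. Grm8 moved up to rank 3 in Sox6- neurons (51.9 ± 19.9) per kb of the longest coding transcript.

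Grm5, a group I receptor gene whose protein binds Homer, varied more between libraries than between the groups. It lay at 891.8, 657.0 and 524.0 in Sox6+ libraries 103, 825 and 1211 and at 1422.7, 415.9 and 867.2 in the Sox6- libraries. The highest and the lowest values were both in Sox6- libraries. The log2 difference was -0.25 (standard error 0.421, adjusted p = 0.858, limma), and it was 0.17 without Sox6- library 103. Markers of GABAergic neurons differed between libraries too: Gad1, which makes GABA, lay at 4797.5, 0 and 1244.8 in the Sox6+ and at 7647.0, 508.6 and 2636.7 in the Sox6- libraries. In both groups library 103 was the highest for Grm5 and for Gad1, but Gad1 was at 0 in Sox6+ library 825, where Grm5 was above library 1211. Gad2 and Slc32a1 were highest in library 103 in both groups as well. Gad2 lay at 1679.1, 0 and 193.1 in the Sox6+ and at 3580.3, 645.5 and 3522.4 in the Sox6- libraries. Slc32a1 lay at 191.4, 5.69 and 34.2 against 305.1, 27.2 and 141.0. The remaining markers of the list ran otherwise in part. In the Sox6- libraries Sst, Npy, Pvalb and Vip were highest in library 1211, and in the Sox6+ libraries Pvalb was. Vip (10756.1) and Sst (1.97) were highest in library 103 among the Sox6+ libraries, where Npy was at 0 throughout. The sum of the 7 GABAergic markers was 17826.5, 5.69 and 2340.8 in the Sox6+ and 16119, 4535.8 and 15263.7 in the Sox6- libraries. The part of such cells in the Grm5 values was not tested.

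The group II receptor gene Grm3 was lower in every Sox6+ library than in any Sox6- library. It lay at 25.6, 9.11 and 20.3 in Sox6+ libraries 103, 825 and 1211 and at 48.9, 75.5 and 183.6 in the Sox6- libraries. Sox6- library 1211 was the highest by a wide margin. The means were 18.4 ± 8.44 and 102.7 ± 71.3 (SD, n = 3 each), and the log2 difference was -2.31 (standard error 0.686). Its adjusted p was 0.241 with limma and 0.0462 with DESeq2, and 0.0381 in the authors' deposited table, where 2.83% of genes with a value passed. The log2 difference was -1.79 without Sox6- library 1211 and -1.90 without Sox6+ library 825. Grm3 lies at chr5:9485541-9725170 on the minus strand of GRCm38.

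Grm3 is also known from astrocytes, and their markers were checked beside it. The 7 astrocyte markers summed to 381.8, 682.1 and 964.8 in Sox6+ libraries 103, 825 and 1211 and to 433.6, 608.3 and 391.4 in the Sox6- libraries, and the groups overlapped. Most of it was Slc1a2, a glutamate transporter, at 380.8, 678.7 and 959.2 in the Sox6+ and at 357.8, 596.2 and 338.5 in the Sox6- libraries. Gfap lay at 0, 3.42 and 0 in the Sox6+ and at 0, 9.06 and 21.3 in the Sox6- libraries. Aldh1l1 was at 0 in the Sox6+ libraries and lay at 0, 3.02 and 5.56 in the Sox6- libraries, so that both were highest in Sox6- library 1211, as Grm3 was. Gja1 was at 0 in all 6 libraries, and Aqp4 was at 0 in all but Sox6+ library 1211, where it was at 4.62. Slc1a3 lay at 75.8 and 24.1 in Sox6- libraries 103 and 1211 and at 0 in the other 4, and Fgfr3 was at most 1.85. The 4 markers of oligodendrocyte precursors summed to 5.54 in Sox6+ library 1211 and to 0 elsewhere. Of the 2 markers of glutamatergic neurons, Slc17a6, a vesicular glutamate transporter, moved with Grm3. It lay at 873.1, 162.8 and 764.2 in the Sox6+ and at 2496.2, 2236.7 and 4815.2 in the Sox6- libraries, lowest in Sox6+ library 825 and highest in Sox6- library 1211, as Grm3 was. The other, Slc17a7, was at 0 in 4 of the 6 libraries and lay at 126.3 in Sox6+ and 103.6 in Sox6- library 103. The part of astrocytes and of glutamatergic neurons in the Grm3 values was not tested.

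The other group II gene, Grm2, was steady in the Sox6+ libraries at 59.2, 62.6 and 55.4 and lay at 67.2, 80.6 and 116.9 in the Sox6- libraries. The groups did not overlap, but the gap between them, 62.6 against 67.2, was smaller than the spread of the Sox6- libraries. The log2 difference was -0.53 (standard error 0.414, adjusted p = 0.656, limma). Per kb of exon the level of Grm3 was below that of Grm2 in all 3 Sox6+ libraries, at 0.696, 0.233 and 0.589 times in libraries 103, 825 and 1211. It was above it in all 3 Sox6- libraries, at 1.17, 1.5 and 2.52 times. With coding length in place of exon length the Sox6- ratios were 0.723, 0.930 and 1.56, so the order of the 2 genes within Sox6- neurons depended on the length used.

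Among the group III genes, Grm8 was lower in the Sox6+ libraries, Grm7 overlapped and Grm4 was near the limit of detection in 1 library. Grm8 lay at 33.5, 0 and 96.1 in Sox6+ libraries 103, 825 and 1211 and at 189.0, 129.9 and 281.9 in the Sox6- libraries, without overlap. The 0 of Sox6+ library 825 allows a value of up to 3.42 (3 reads), for counting error only. The means were 43.2 ± 48.8 and 200.3 ± 76.6 (SD, n = 3 each), 4.63-fold higher in Sox6- neurons. The log2 difference of -3.68 (standard error 1.6, adjusted p = 0.451, limma) rests on that 0: it was -1.73 without Sox6+ library 825 and -2.21 with DESeq2 or edgeR on the reads. In that library 6 of the 7 GABAergic markers were also at 0. Of the 7, Sst and Npy, 2 neuropeptide genes, were lower in Sox6+ libraries without overlap, and the other 5 overlapped. Sst lay at 1.97, 0 and 0 in the Sox6+ and at 3958.3, 3164.2 and 5814.1 in the Sox6- libraries. Pvalb ran the other way in 2 of 3 numbers, at 400.5, 0 and 868.7 against 60.4, 66.5 and 128.0, and Vip was highest in Sox6+ library 103, at 10756.1. Slc17a6 was also higher in Sox6- libraries. The part of these cells in the Grm8 values was not tested.

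Grm7, which is the group III receptor most often found in the active zone of terminals, lay at 205.2, 256.2 and 144.2 in the Sox6+ and at 284.0, 226.6 and 331.1 in the Sox6- libraries. Sox6+ library 825 was above Sox6- library 825, while the other 2 numbers ran the other way. The log2 difference was -0.49 (standard error 0.3, adjusted p = 0.563, limma). Grm4 lay at 64.1, 37.6 and 24.0 against 19.2, 31.2 and 0.93, where 0.93 stands for 1 read. It was the only receptor gene among the 6 with a positive log2 difference, at 1.88 (standard error 1.12, adjusted p = 0.553, limma). That difference was 0.64 without Sox6- library 1211, the library with the single read, and 1.29 with DESeq2. Grm6, a receptor gene of the retina that is not among the 9, had 1 read in all 6 libraries together.

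**Figure D3:**
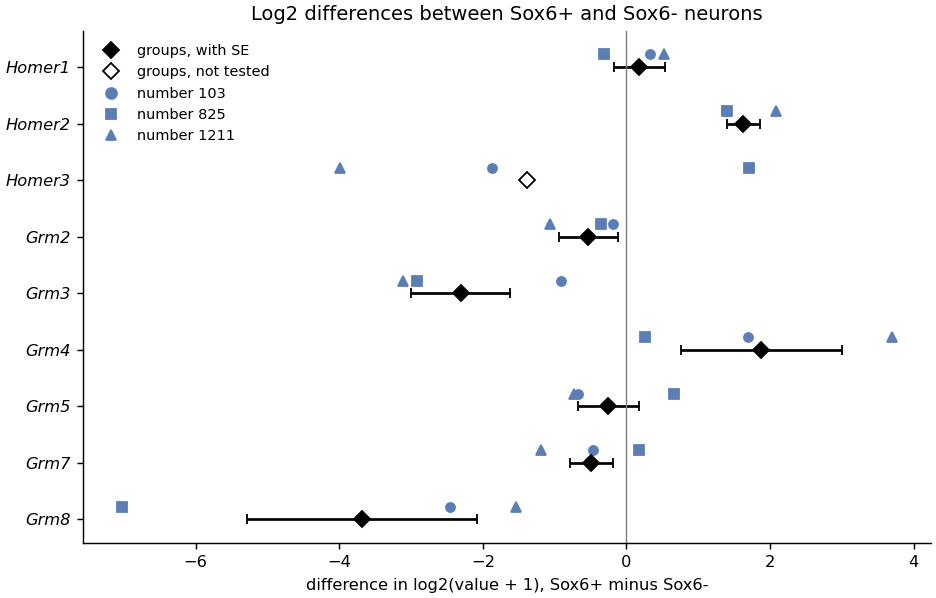
Log2 difference of each gene, Sox6+ minus Sox6-, on the log2(value + 1) scale: black diamonds give the groups with their standard error (open for Homer3, which was not tested) and blue symbols the difference between libraries of the same number. The Homer2 symbols lie from 1.39 to 2.08, and the Grm8 symbol of number 825, at -7.03, comes from a library with 0 reads.

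Of the 8 tested members, 3 had a positive and 5 a negative log2 difference, with a median of -0.37 against -0.02 over all tested genes. Homer2 was higher without overlap and Grm2, Grm3 and Grm8 were lower without overlap, and 17.0% of all tested genes had groups that did not overlap (7.86% higher and 9.19% lower). Since the contrast was known when the genes were chosen, nothing is read from this count. DESeq2 on the recovered reads called 2 members, Homer2 and Grm3, and 2.98% of all genes. EdgeR called 0 members and 0.0455% of all genes. An unadjusted limma p under 0.05 was found for 2 members and for 11.4% of all tested genes.

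The partners of these proteins were followed in 5 lists of 56 gene symbols, some of them an older and a newer name of the same gene. Of these symbols 52 were in the table and 49 were tested. With limma 0 of the 49 passed over all genes, 8 had an unadjusted p under 0.05 (2 higher and 6 lower in Sox6+ neurons), and the median log2 difference was -0.09 against -0.02 for all tested genes. EdgeR called 0 and DESeq2 called 2 higher, both in the Gq arm, where it called 1.31% of all its genes higher. An unadjusted p under 0.05 was found for 11.4% of all tested genes. Limma called 0.304% of all tested genes. Sox6, at a log2 difference of 3.66, did not pass either (adjusted p = 0.0528 with limma and 0.158 with edgeR). A count of 0 therefore does not show that the partner genes had equal levels. The lists were chosen by function and hold none of the 9 members.

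The Gq arm, with 8 genes tested, held the 2 genes of smallest p. Prkca, the alpha form of protein kinase C, which group I receptors activate through diacylglycerol, lay at 1255.8, 1408.6 and 1333.5 in Sox6+ libraries 103, 825 and 1211 and at 592.9, 790.5 and 405.3 in the Sox6- libraries. The groups did not overlap, and the log2 difference was 1.21 (standard error 0.239, adjusted p = 0.0854 with limma, 0.163 with edgeR and 0.00135 with DESeq2). Plcb4, a phospholipase C driven by Gq, lay at 3285.1, 2222.7 and 2693.8 against 1954.2, 1154.1 and 1080.5, also without overlap. Its log2 difference was 1.0 (standard error 0.244, adjusted p = 0.157 with limma, 0.273 with edgeR and 0.0141 with DESeq2). Gnaq, the Gq alpha subunit, and Itpr1, the IP3 receptor that Homer binds, had log2 differences of 0.31 and -0.37, each with overlapping groups. The median of the arm was 0.11, with 4 genes positive and 4 negative.

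The list of postsynaptic scaffolds holds the Shank proteins, which bind Homer, and proteins joined to Homer through them. Its 12 tested genes ran from -2.98 to 0.49 on the log2 scale with a median of 0.06, and the 3 with an unadjusted p under 0.05 were all lower in Sox6+ neurons. For Shank1, a scaffold that links Homer to the receptors' complex, the means were 593.4 ± 36.4 and 572.1 ± 104.9 (SD, n = 3 each) and the log2 difference was 0.07. Dlg1, a membrane-associated guanylate kinase, lay at 575.1, 502.2 and 600.7 against 722.4, 860.0 and 994.2, without overlap, and had an adjusted p of 0.272 (limma). Baiap2, a Shank-binding adaptor, lay at 289.1, 14.8 and 38.8 against 529.6, 242.7 and 691.9. Its Sox6+ library 103 lay above Sox6- library 825, and its adjusted p was 0.381 (limma).

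In the Gi/o arm, 9 of 12 genes had a negative log2 difference, with a median of -0.27. Gnai2, a Gi alpha subunit, had means of 1014.2 ± 64.6 in Sox6+ and of 1344.9 ± 213.4 in Sox6- neurons (SD, n = 3 each), with an adjusted p of 0.426 (limma). Adcy8, a calcium-stimulated adenylyl cyclase, lay at 127.3, 0 and 14.8 in Sox6+ libraries 103, 825 and 1211 and at 269.6, 144.0 and 158.6 in the Sox6- libraries, with an adjusted p of 0.43 (limma). Its only 0 was in Sox6+ library 825, where Grm8 was also at 0.

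Among 10 regulators that bind the receptors the median was 0.17, and none had an unadjusted p under 0.05. Ncdn, or norbin, which binds mGluR5, lay at 1394.6 ± 242.8 against 1793.9 ± 385.7, and Elfn1, a trans-synaptic partner of group III receptors, at 71.4 ± 25.5 against 41.9 ± 16.6 (SD, n = 3 each). Their adjusted p-values were 0.522 and 0.615 (limma). Of 7 further proteins that bind Homer, 5 had a negative difference, with a median of -0.61. Ryr2, a calcium release channel, lay at 67.1, 20.5 and 30.5 against 150.6, 92.6 and 141.9, without overlap (adjusted p = 0.234, limma).

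**Figure D4:**
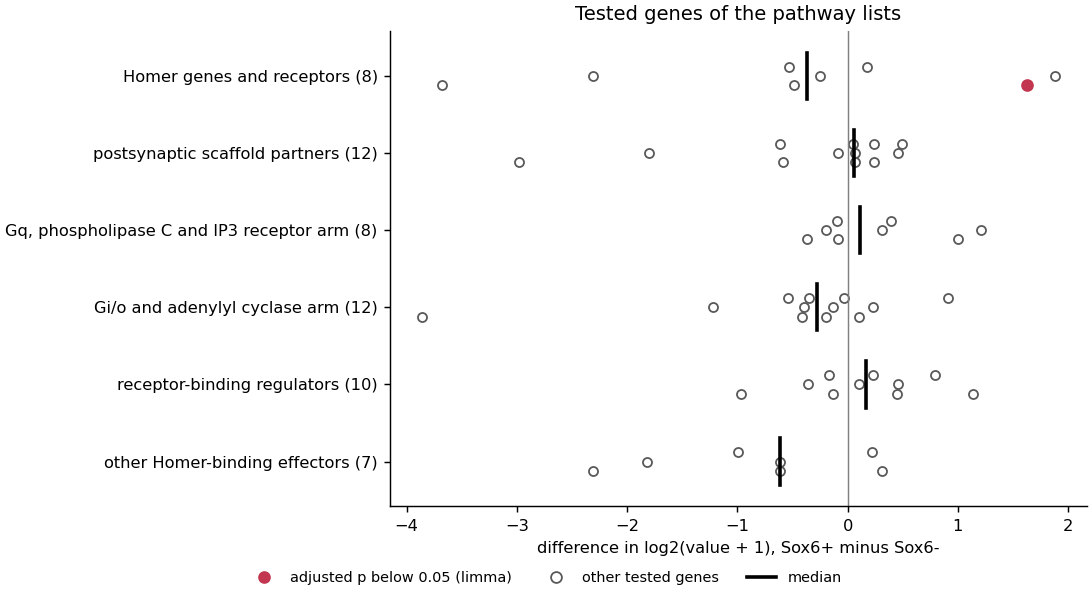
Log2 difference, Sox6+ minus Sox6- on the log2(value + 1) scale, of each tested gene among the Homer and receptor genes and in the 5 lists of partners, with the number of tested genes in brackets and the median as a black line. Homer2, at 1.63, is the filled point, and the list medians lie between -0.61 and 0.17.

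The genes whose profile over the 6 libraries was nearest to that of Homer2 were Serpine2, Tmem117, Cadm2, Rassf6 and Setd7. Nearness was the root mean square difference of log2(value + 1), each gene centred on its own mean, over 9665 other genes with a mean of at least 50. It was 0.130, 0.139, 0.152, 0.171 and 0.181 for these 5, against a median of 0.894 over all genes compared. Serpine2, a secreted protease inhibitor, lay at 13705.8, 16930.1 and 23047.3 in Sox6+ libraries 103, 825 and 1211 and at 6344.2, 7719.1 and 4703.0 in the Sox6- libraries. As with Homer2, Sox6+ library 1211 was the highest and Sox6- library 1211 the lowest of the 6. The 5 genes were picked for their nearness, so their likeness to Homer2 follows from the choice. Homer1 stood at 0.779 and Grm5 at 1.18 from Homer2, so that 26.4% and 83.3% of the genes compared were nearer.

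**Figure D5:**
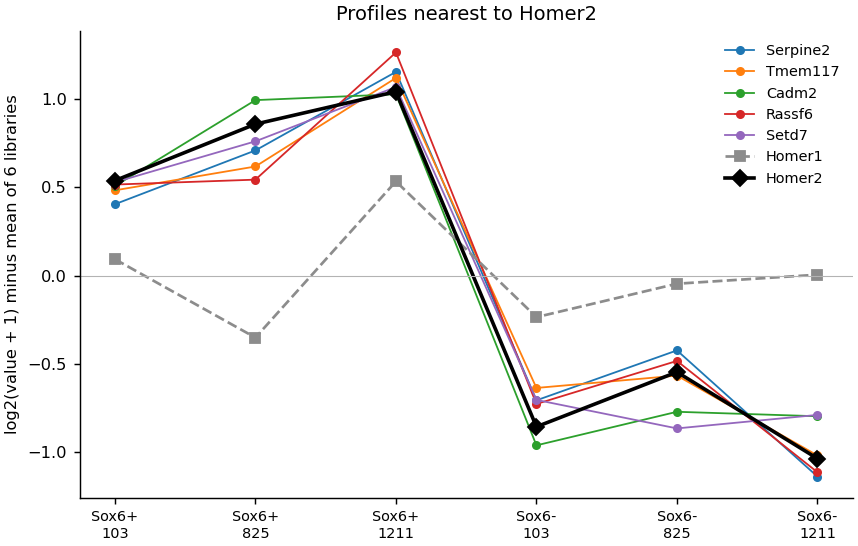
Log2(value + 1) minus the mean of the 6 libraries, by library, for Homer2 (black), the 5 genes nearest to it and Homer1 (grey, dashed), with lines that only join the points of a gene. The 5 genes lie within a root mean square difference of 0.181 of Homer2, and Homer1 at 0.779.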

How the data were processed

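After papain dissociation and mirVana extraction, stranded TruSeq mRNA libraries were made from the sorted neurons, per the labels' protocols. The builds GRCm38 and mm10 and the tools STAR, HTSeq, cutadapt, FastQC and DESeq2 are listed in the submitters' processing notes. Their versions and settings are not stated there. What the authors deposited is a normalized signal for each gene and library, made by dividing reads by the library's size factor. Their table also holds the authors' log2 fold change with its standard error, p-values, and the test statistic as a score. Each signal above 0 was a whole multiple of 1 step per library (0.9241 to 1.1387) within 0.01, for 100.0% of values, so reads were recovered. EdgeR and DESeq2 on these reads were alternatives.

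Groups came from the sample titles. The main test was limma (trend, robust, 2-sided, no block) on log2(value + 1) for the 13175 genes whose 6-library mean reached 10, with Benjamini-Hochberg adjustment at 0.05. Alternatives were the replicate block, pseudocounts of 0.5 and 8, no filter or a mean of at least 50, TMM, edgeR with and without the block, DESeq2, and leaving out each library. The members and lists were chosen with earlier results of these data known. All 9 members were named, with the list genes past the threshold or else the 2 of smallest p per list (1 of these is not reported here), and the 5 genes nearest to Homer2 without predicted genes, Rik clones and pseudogenes. Grm6, Gnaq, Itpr1 and Shank1 were named after their values were seen. Other lengths per gene were also added after the data were seen. The fits were tested on simulated data. Positions and lengths are from GENCODE M21 on GRCm38 and start windows from RefSeq, matched by symbol (20953 of 23337 symbols in GENCODE, 7 of 9 members in the start table). The fits ran in R 4.3.3 with DESeq2 1.42.0, edgeR 4.0.16 and limma 3.58.1; tables and figures were made in Python 3.11.15 with matplotlib 3.10.9, scipy 1.17.1, pandas 2.3.3 and numpy 2.4.6.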

Additional observations from a re-analysis of the deposited data

How the results depend on the processing

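With 3 libraries per group, how many genes passed depended on the test and on single libraries. The main counts of 17 genes higher and 23 lower in Sox6+ neurons became 34 and 35 with a pseudocount of 8, 7 and 14 with no filter, 1 and 5 with edgeR, and 171 and 216 with DESeq2. Leaving out 1 library gave 0 to 60 higher and 1 to 102 lower; the lowest counts came without Sox6- library 1211 and the highest without Sox6+ library 103. The count of members past the threshold, 1 in the main fit, was 0 with edgeR, 2 with DESeq2 and 0 to 1 without 1 library. Of the partner lists, where 0 genes passed, 2 passed with DESeq2 (Plcb4 and Prkca) and 0 to 2 without 1 library (Adcy8 and Baiap2 without Sox6+ library 103, Plcb4 without Sox6- library 103). The cause of these changes was not tested. Over the fits without 1 library the log2 difference of Homer1 ran from -0.04 to 0.41 and that of Grm5 from -0.72 to 0.17, so both changed sign; the differences of the other 6 tested members kept their sign in every fit that gave a value (Grm4 gave none with a mean of at least 50, and Homer3 was fitted only with no filter, at -1.38).

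The libraries share numbers between groups, and the labels do not say what a number marks. For that reason the main fit did not take the numbers as pairs. The correlation of deviations from the group means between same-numbered libraries was 0.268, 0.172 and 0.079 for 103, 825 and 1211. These values were low, but each library correlated best with its own number, so a pairing is not excluded. With the replicate block, limma called 134 genes higher and 133 lower (2.03% of tested genes), 1 member (Homer2, adjusted p = 0.00739) and 2 list genes (Plcb4 and Prkca). EdgeR with the replicate block called 63 and 57, 1 member (Homer2) and 1 list gene (Plcb4).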
